A study of Mus musculus with 12 samples.

Results

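The genes described here are 9 laminin chains, the α chains Lama1, Lama2, Lama3, Lama4 and Lama5, the β chains Lamb1, Lamb2 and Lamb3, and the γ chain Lamc1. They were taken by symbol from the annotation of the array, and the family was chosen by its log2 levels in the 4 groups of this study. Each of the 9 has 1 probe set that names a single gene, among 22180 genes with such a probe set, and all 9 were among the 16635 genes kept after the dimmest 25% were left out. Since the levels on these same arrays were known at that choice, the adjusted p-values below say where the chains stand in a fit of all genes and are not independent evidence.

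The mice carried colorectal tumors of the AOM/DSS model, in which a carcinogen (azoxymethane) is combined with an agent that injures the colon lining (dextran sulfate). Laser-capture microdissection of paraffin-embedded tumors gave a tumor and a stroma sample, and RNA from each was hybridised to an Affymetrix array. The 4 groups were Stat3wt tumor, Stat3wt stroma, Stat3dm tumor and Stat3dm stroma, with 3 samples each. All mice received the same tumor induction. Stat3wt mice were wild type, and in Stat3dm mice Stat3, a transcription factor activated by cytokines, was deleted conditionally in myeloid cells. The driver of the deletion, the strain, the age and the sex are not stated in the labels. Each sample pooled 2 tumors of 1 mouse, and 50 ng of total RNA was amplified with a kit for fixed tissue. The labels do not say whether a tumor and a stroma sample of the same number came from the same mouse. The p-values measure the spread between these samples. The design asks which changes in the stroma depend on STAT3 in myeloid cells.

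Laminins are cross-shaped secreted proteins built from an α, a β and a γ chain. They assemble into sheets that found the basement membrane, the thin matrix under epithelia and around vessels, muscle fibres and nerves. The α chain carries the domain that integrins, dystroglycan and Bcam bind, and the composition differs between tissues. In the gut, Lama3 and Lamb3 belong to the laminin that anchors epithelial cells at hemidesmosomes, Lama5 to the laminins under the mature epithelium and around vessels, Lama4 to vessel laminin, and Lama2 to laminins of muscle and mesenchyme. Lamc1 is the γ chain shared by most laminins outside hemidesmosomes.

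The stretches upstream of Lama5 and Lamb1 are shown because these were the chains with the largest averaged differences between genotypes. Promoter windows from 250 bases before to 50 bases after a start site (build GRCm38.p6) matched 5 of the 9 chains. These were Lama2, Lama5, Lamb1, Lamb2 and Lamb3, which had 2 windows. The start site of a window need not be the first base of the annotated RefSeq gene, so a window can reach farther into the gene. The windows of Lama1, Lama3, Lama4 and Lamc1 were not analysed here. The stretches end before the annotated gene, at chr2:180225905-180226109 on the minus strand for Lama5 and at chr12:31265043-31265145 on the plus strand for Lamb1. They run 5′ to 3′, and capitals mark the GC box GGGCGG on either strand.
Lama5: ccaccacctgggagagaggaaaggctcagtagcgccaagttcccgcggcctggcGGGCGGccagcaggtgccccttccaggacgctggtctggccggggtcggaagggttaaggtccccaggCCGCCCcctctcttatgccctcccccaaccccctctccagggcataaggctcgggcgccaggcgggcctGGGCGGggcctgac
Lamb1: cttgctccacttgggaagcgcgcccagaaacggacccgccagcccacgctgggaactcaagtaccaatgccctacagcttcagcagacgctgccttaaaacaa
The Lama5 stretch of 205 bases is 71.7% G and C and holds 3 GC boxes, while the Lamb1 stretch of 103 bases is 58.3% G and C and holds 0. Over their whole windows of 300 bases, Lama5 had 4 matches to GGGCGG, Lamb1 had 2 and Lama2 had 1, and 35.7% of all 32851 windows hold this motif. The STAT palindrome TTCNNNGAA, the letters bound by STAT proteins, occurred in 8.30% of all windows and, among the chains, had 1 match in the window of Lamb2. The AP-1 site TGANTCA was in 7.81% of windows and the TATA box TATAAA in 13.6%, with 0 matches in the windows of the 5 chains. The CCAAT box, searched as CCAAT, was in 37.4% of windows and had 1 match in that of Lamb1. None of the 5 motifs contains another, both strands were searched, and a match describes letters only.

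Levels are log2 RMA signals, in which 1 unit is a doubling, and a level is compared here only with that of the same gene in other samples. Over the 12 arrays the chains spanned between 1.45 log2 units, for Lama1, and 2.47, for Lamc1. Markers of epithelium and of stromal cells differed between the tissues. All 10 epithelial markers tested were below 0 in stroma relative to tumor, and 5 passed, where 2.55% of all genes tested did, among them Epcam with a log2 difference of -1.01 ± 0.21 (SE; limma, adjusted p = 0.0312) and Cdh1 with -1.04 ± 0.25 (adjusted p = 0.0450). All 6 leukocyte markers were higher in stroma and passed, and 3 of 9 fibroblast and 3 of 8 endothelial markers also passed upwards, against 0.848% of all genes. Leaving out 1 sample ended many of the calls between tissues. Without Stat3wt stroma replicate 3, Stat3dm tumor replicate 2 or Stat3dm tumor replicate 3, 0 genes of the whole table passed between tissues in limma's fit, those of the markers included, 1 passed without Stat3wt tumor replicate 1, and 6 passed without Stat3dm stroma replicate 2. Of the smooth muscle (8), pericyte (5), glial (4) and adipocyte (2) markers tested, all were above 0 in stroma and 0 passed in limma's fit. The mean over the 10 epithelial markers was 7.12 to 8.56 in Stat3dm stroma, 7.53 to 7.87 in Stat3wt stroma, 8.47 to 9.28 in Stat3dm tumor and 8.46 to 9.15 in Stat3wt tumor. Stat3 itself was measured over all cells of a microdissected area, not in myeloid cells alone. It lay at 7.71 ± 0.44 (SD, n = 3) in Stat3wt tumor, 7.35 ± 0.65 in Stat3wt stroma, 7.44 ± 0.47 in Stat3dm tumor and 7.36 ± 0.038 in Stat3dm stroma. It did not pass in any comparison, so it does not check the genotype labels here.

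**Figure D1:**
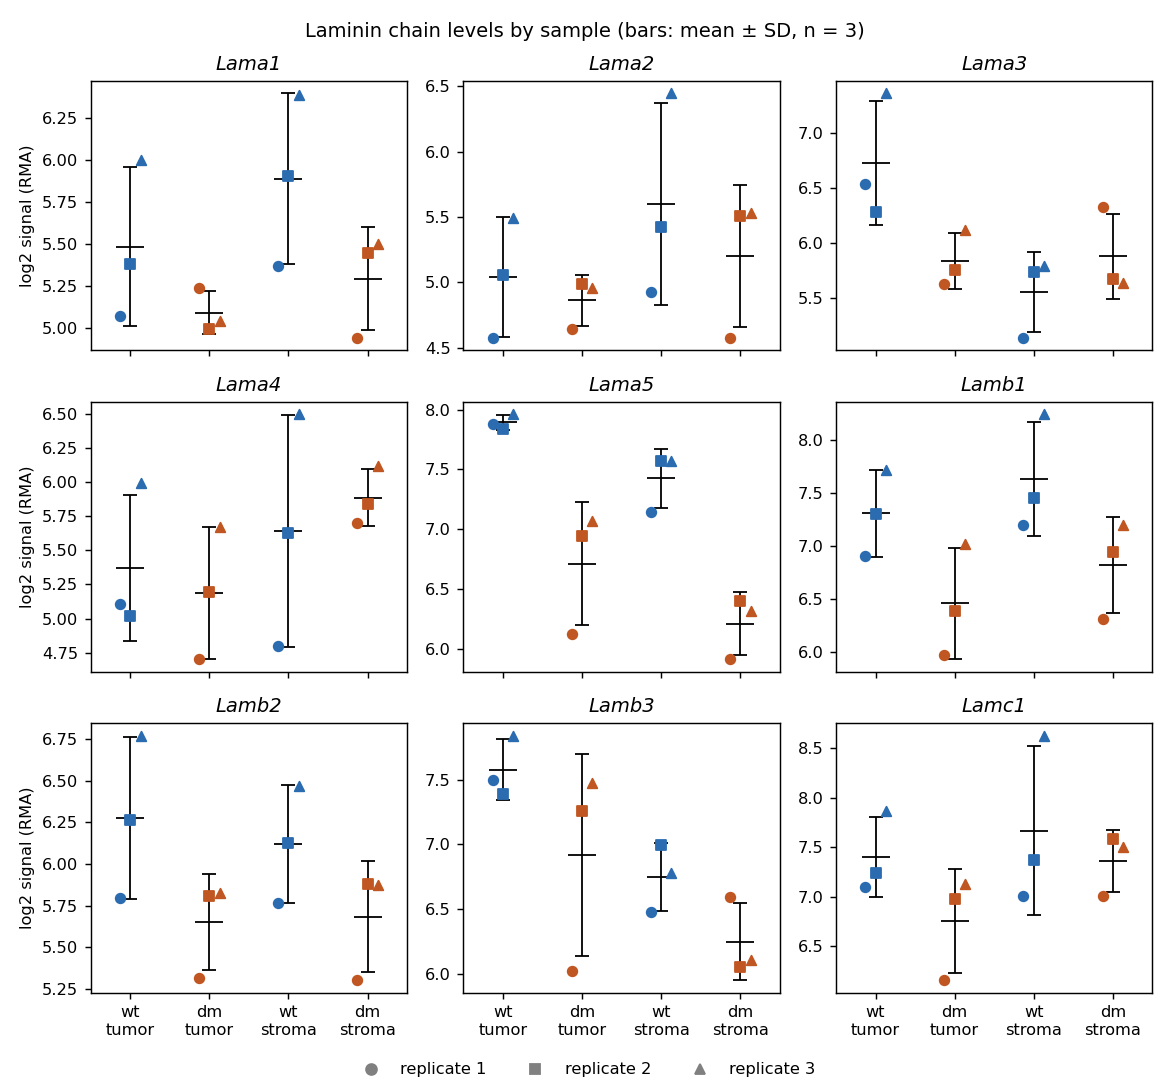
Log2 RMA signal (y axis, scaled for each gene) of the 9 laminin chains in Stat3wt (blue) and Stat3dm (orange) tumor and stroma; symbols are the 3 samples of a group and bars the mean ± SD. For Lama5 all 6 Stat3dm samples, at most 7.07, lie below all 6 Stat3wt samples, at least 7.14.

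Lama5, the α chain of the laminins under the mature epithelium, was lower in Stat3dm samples in both tissues. In tumor areas the Stat3wt samples measured 7.88, 7.84 and 7.96 and the Stat3dm samples 6.12, 6.94 and 7.07. In stroma the Stat3wt samples measured 7.14, 7.57 and 7.57 and the Stat3dm samples 5.91, 6.40 and 6.32. The genotypes did not overlap in either tissue, and the Stat3wt tumor samples were the closest to each other, with an SD of 0.061. In stroma the mean was 7.42 ± 0.25 (SD, n = 3) in Stat3wt and 6.21 ± 0.26 in Stat3dm, a log2 difference of -1.22 ± 0.25 (SE), or 2.32-fold. It did not pass in limma's fit (adjusted p = 0.239 over all 16635 genes). In tumor the difference was -1.18 ± 0.25, or 2.27-fold, and did not pass either (adjusted p = 0.154).

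Averaged over stroma and tumor, with 6 samples a side, the Lama5 difference was -1.20 ± 0.18 (SE; 95% interval -1.58 to -0.82), 2.29-fold lower in Stat3dm. It passed in limma's fit (adjusted p = 0.0110), 1 of 47 genes that did, 0.283% of those tested, of which 33, or 0.198%, were lower. This averaged comparison was chosen after the values of the chains had been seen. It counts a tumor and a stroma sample as separate, and with samples of the same genotype and number as a random block the adjusted p was 0.0279. Over all 21 alternatives it lay between 6.80e-05 and 0.0439, and the difference between -1.29 and -1.05. The difference between the tissues in the genotype effect was -0.03 ± 0.35 (95% interval -0.79 to 0.72), so the effects in stroma and tumor could still differ by up to 0.79 log2 units. In bulk RNA, fewer cells of a type and less RNA per cell cannot be told apart.

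Lamb1, the β chain that pairs with Lamc1 in many laminins, had the next lowest genotype difference averaged over tissues, while in tumor that of Lama3 was lower. In stroma it measured 7.20, 7.45 and 8.24 in Stat3wt and 6.32, 6.95 and 7.20 in Stat3dm; the genotypes did not overlap, although the highest Stat3dm and the lowest Stat3wt sample were nearly equal. In tumor it measured 6.90, 7.30 and 7.72 in Stat3wt and 5.97, 6.39 and 7.02 in Stat3dm, with an overlap. The log2 difference was -0.81 ± 0.34 (SE) in stroma, -0.85 ± 0.34 in tumor and -0.83 ± 0.24 averaged over tissues. None of these passed (adjusted p = 0.904, 0.698 and 0.192 in limma's fit).

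Lama3, the α chain of the hemidesmosomal laminin, had its highest group mean in Stat3wt tumor, 6.73 ± 0.56 (SD, n = 3), and group means of 5.56 to 5.88 elsewhere. Stat3wt tumor samples measured 6.54, 6.29 and 7.36, and the other 9 samples lay between 5.14 and 6.33. Stat3dm tumor samples measured 5.63, 5.76 and 6.12, all below the Stat3wt tumor samples. Stroma measured 5.14, 5.74 and 5.80 in Stat3wt and 6.33, 5.67 and 5.64 in Stat3dm, which overlap. The log2 difference between genotypes was -0.89 ± 0.30 (SE) in tumor (adjusted p = 0.536) and 0.32 ± 0.30 in stroma (adjusted p = 0.999), both short of the threshold in limma's fit. Their difference, the interaction, was 1.21 ± 0.42 (95% interval 0.32 to 2.11) with an unadjusted p of 0.0112 and an adjusted p of 0.995 in limma's fit. 0 of 16635 genes passed for the interaction, 0%, and 401, or 2.41%, had an unadjusted p under 0.05.

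Lamb3, the β partner of Lama3, had lower mean levels in Stat3dm in both tissues, with wide scatter in Stat3dm tumor (SD 0.78). Tumor areas measured 7.50, 7.39 and 7.84 in Stat3wt and 6.03, 7.26 and 7.47 in Stat3dm, where the first sample was far below its group. Stroma measured 6.48, 7.00 and 6.78 in Stat3wt and 6.59, 6.05 and 6.11 in Stat3dm. The groups overlapped in both tissues. The averaged log2 difference was -0.58 ± 0.23 (SE) and did not pass (limma, adjusted p = 0.450).

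The shared γ chain Lamc1 measured 7.10, 7.24 and 7.87 in Stat3wt tumor and 6.16, 6.98 and 7.13 in Stat3dm tumor. In stroma it measured 7.01, 7.37 and 8.63 in Stat3wt and 7.01, 7.59 and 7.50 in Stat3dm, so the genotypes overlapped in both tissues. Its averaged log2 difference was -0.48 ± 0.27 (limma, adjusted p = 0.719). Lamb2, the β chain of vessel and synaptic basement membranes, differed by -0.53 ± 0.20 (adjusted p = 0.400), and Lama1, the α chain of the early embryo, by -0.49 ± 0.20 (adjusted p = 0.484). Lama2 and Lama4 differed by -0.29 ± 0.26 and 0.03 ± 0.27, with 95% intervals of -0.84 to 0.26 and -0.54 to 0.61. The 12 samples ran from 5.30 to 6.77 for Lamb2, 4.94 to 6.39 for Lama1, 4.57 to 6.45 for Lama2 and 4.70 to 6.49 for Lama4, with overlap between the genotypes in both tissues for each. For Lama2 and Lama4 the direction turned under some alternatives, as did that of Lamc1 in stroma.

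Counted over the 9 chains, 9 were below 0 in tumor, with a median log2 difference of -0.65 against -0.01 over all genes. Lama2 and Lama4 lay above 0 in tumor under some alternatives, so this count does not hold in all of them. In stroma 7 of 9 were below 0, with a median of -0.43 against -0.02. Averaged over tissues 8 of 9 were below 0, with a median of -0.49 against -0.01. Of all genes, 48.7% were above 0 in tumor, 47.2% in stroma and 47.4% averaged over tissues. The chains varied together over the arrays, so these counts are not of independent genes. In the averaged comparison 1 of 9 chains, Lama5, passed, while 5 of 9 had an unadjusted p under 0.05 against 8.23% of all genes. Within tumor 0 of 9 chains passed in limma's fit, where 3 genes, 0.018%, did, and 4 of 9 chains had an unadjusted p under 0.05 against 6.26% of all genes. Within stroma 0 chains passed, as did 0 of all genes (0%), and 2 of 9 chains had an unadjusted p under 0.05 against 5.07%, or 844 genes. The genotypes did not overlap for 2 chains in stroma, Lama5 and Lamb1, where 10.8% of all genes did not overlap, and for 2 in tumor, Lama3 and Lama5, where 9.52% did not. Across all 12 samples 1 chain, Lama5, did not overlap, against 0.535% of genes.

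**Figure D2:**
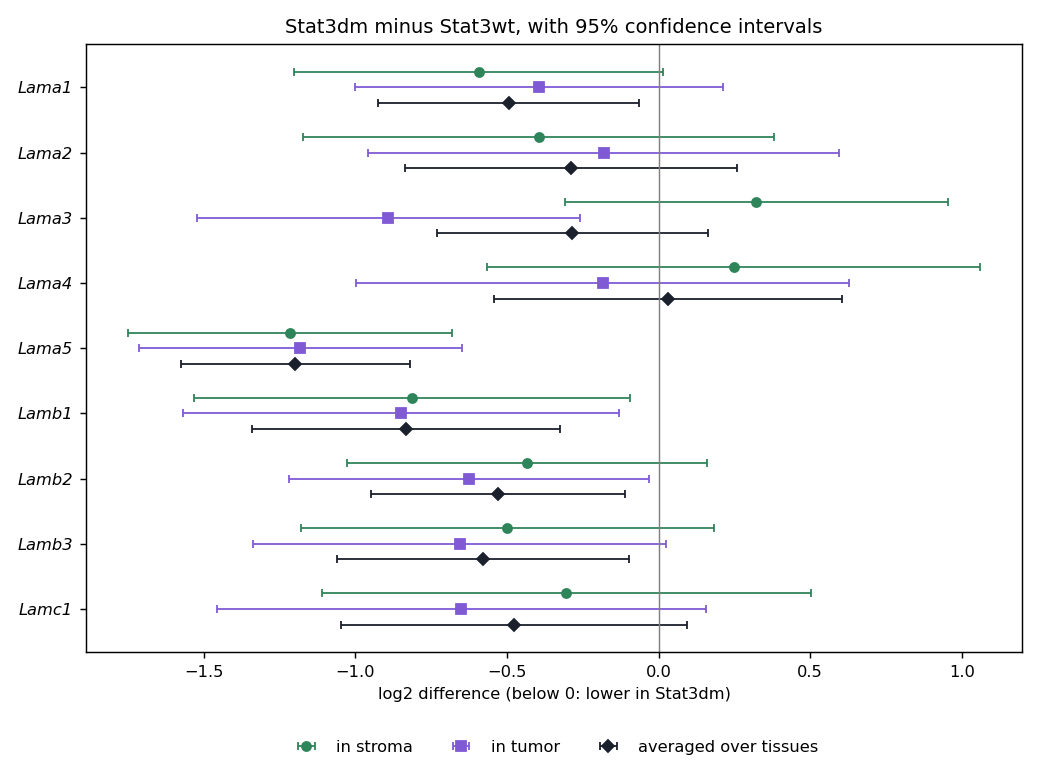
Log2 difference between Stat3dm and Stat3wt (x axis, below 0 lower in Stat3dm) for each chain in stroma (circles), in tumor (squares) and averaged over tissues (diamonds), with 95% confidence intervals from limma's fit. The averaged Lama5 difference, -1.20, lies farthest from 0.

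All 6 leukocyte markers were above 0 in Stat3dm relative to Stat3wt stroma, and 0 passed in limma's fit. Their median difference was 1.03 log2 units. Of the 6, 5 did not overlap between genotypes, against 10.8% of all genes, and 6 had an unadjusted p under 0.05, against 5.07%. Ptprc differed by 1.21 ± 0.35 (adjusted p = 0.546) and Cd53 by 1.72 ± 0.28 (adjusted p = 0.0956). The mean over the 6 markers was 7.50 to 7.86 in Stat3dm stroma, 6.11 to 7.05 in Stat3wt stroma, 5.95 to 6.22 in Stat3dm tumor and 5.74 to 6.24 in Stat3wt tumor. In tumor areas all 6 leukocyte markers were above 0 in Stat3dm as well, with a median of 0.14. There 0 passed in limma's fit, against 0.018% of all genes. Epithelial markers went both ways, 6 of 10 above 0 in Stat3dm in each tissue. In stroma 5 of 5 pericyte, 7 of 8 smooth muscle, 6 of 9 fibroblast and 5 of 8 endothelial markers were below 0. Their medians were -0.33, -0.14, -0.09 and -0.22. In tumor these counts were 4, 7, 5 and 4 in the same order, with medians of -0.18, -0.19, -0.06 and -0.006. The part of these cell types in the chains' differences was not tested.

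Between tissues the chains fell on either side of 0. Lamb3, Lama3 and Lama5, the chains of epithelial laminins, were at lower levels in stroma than in tumor, and the chains Lama4, Lama2, Lamc1, Lamb1 and Lama1 at higher levels. 0 of the 9 chains passed in the comparison averaged over genotypes, where 425 genes, 2.55%, did (141 higher in stroma, 0.848%, and 284 lower, 1.71%). That split was 244 to 189 with quantile normalization 32 to 136 with median centring and 228 to 36 with array spread as a covariate. An unadjusted p under 0.05 was found for 3 of 9 chains, all lower in stroma, against 22.3% of all genes. The groups overlapped for all 9 chains, against 2.05% of genes without overlap.

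Lamb3 had the largest averaged difference, at -0.75 ± 0.23 (SE; 95% interval -1.23 to -0.27), 1.68-fold lower in stroma (limma, adjusted p = 0.0839). With samples of the same genotype and number as a random block it passed (adjusted p = 0.0392). Lama3 followed with -0.56 ± 0.21 (adjusted p = 0.137) and Lama5 with -0.48 ± 0.18 (adjusted p = 0.132). Leaving out Stat3dm tumor replicate 1, the sample with the lowest Lamb3 and Lama5 of its group, brought Lamb3 to -0.97 (limma, adjusted p = 0.0127) and Lama5 to -0.63 (adjusted p = 0.0282). Over all alternatives the adjusted p ranged from 0.00128 to 0.431 for Lamb3 and from 0.00722 to 0.611 for Lama5. The 5 chains at higher levels in stroma had averaged differences from 0.30 ± 0.20, for Lama1, to 0.48 ± 0.27, for Lama4 (limma, adjusted p from 0.298 to 0.397). All 5 were lowest without Stat3wt stroma replicate 3, at 0.18 for Lama1, 0.24 for Lama2, 0.27 for Lama4, 0.19 for Lamb1 and 0.20 for Lamc1. With the spread of each array, the SD of its log2 signals, as a covariate, 3 of them passed in limma's fit, Lama4 at 1.10 (adjusted p = 0.00799), Lamb1 at 0.84 (0.0348) and Lamc1 at 0.99 (0.0356), and Lama1 and Lama2 reached 0.58 and 0.88 without passing. The same covariate brought Lamb3 to -0.40, Lama3 to -0.23 and Lama5 to -0.21. Lamb2 differed by -0.06 ± 0.20 and changed sign with the scaling of the arrays.

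Within Stat3wt, Lama3 was 2.25-fold lower in stroma, with a log2 difference of -1.17 ± 0.30 (limma, adjusted p = 0.185). The tissues did not overlap for Lama3, Lamb3 and Lama5, 3 of 9 chains against 23.9% of all genes. Within Stat3dm the Lama3 difference was 0.04 ± 0.30, with a 95% interval of -0.59 to 0.68. Stat3dm stroma replicate 1 had the highest Lama3 of its group, 6.33. Its mean over the epithelial markers was 8.56, against 7.12 and 8.02 in replicates 2 and 3. Without this sample the Lama3 difference was -0.18. The part of epithelial content in it was not tested. Lama4, the α chain of vessel laminin, was the chain without overlap within Stat3dm, 1 of 9 against 13.7% of genes. It measured 4.70, 5.19 and 5.67 in tumor and 5.70, 5.84 and 6.12 in stroma. The Lama4 difference was 0.70 ± 0.38 (limma, adjusted p = 0.605). It became 1.07 and passed with array spread as a covariate (adjusted p = 0.0262). 0 of 9 chains and 0 of all genes, 0%, passed within either genotype in limma's fit. An unadjusted p under 0.05 was found for 2783 genes, 16.7%, in Stat3wt and 1610, 9.68%, in Stat3dm. Whether the tissue difference of Lama3 differed between genotypes is the interaction given above.

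**Figure D3:**
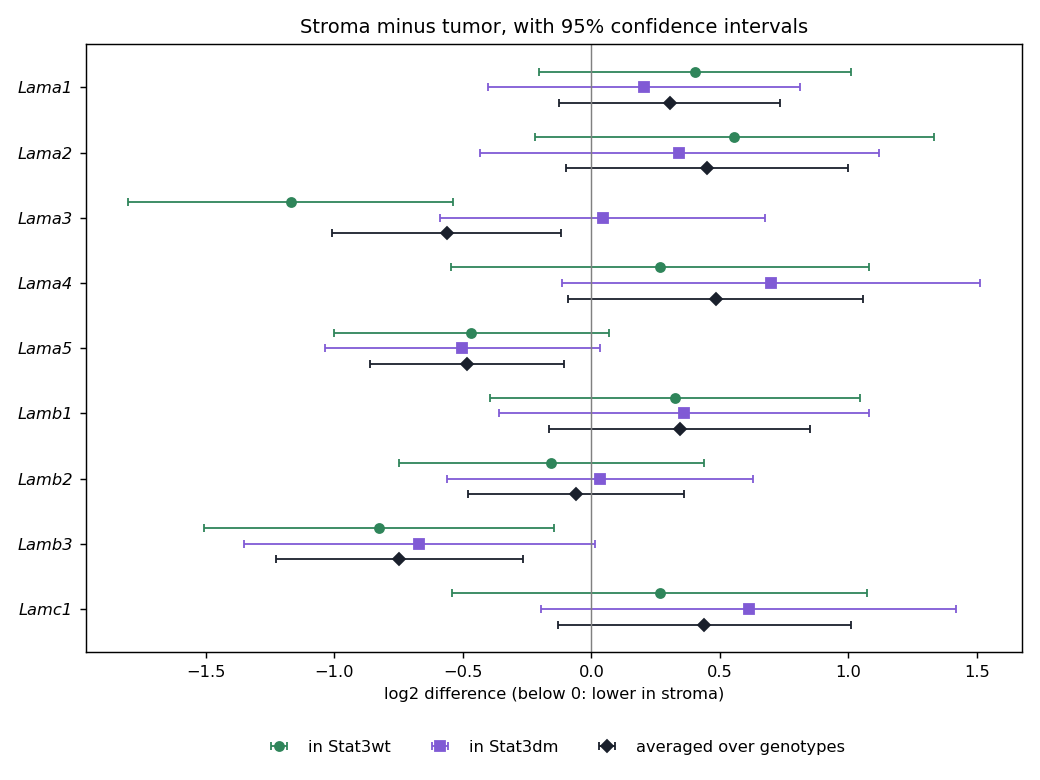
Log2 difference between stroma and tumor (x axis, below 0 lower in stroma) for each chain in Stat3wt (circles), in Stat3dm (squares) and averaged over genotypes (diamonds), with 95% confidence intervals from limma's fit. Lama3 lies at -1.17 in Stat3wt and at 0.04 in Stat3dm.

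Of 14 receptors that bind laminins, 2 were lower in stroma past the threshold, where 1.71% of all genes were, and 0 were higher. In all 11 were below 0, with a median log2 difference of -0.36 against -0.03 over all genes. An unadjusted p under 0.05 was found for 8 lower and 2 higher, against 22.3% of all genes in either direction. Itga3, an integrin subunit that binds epithelial laminins, differed by -1.15 ± 0.19 (limma, adjusted p = 0.0216), and Itgb4, the hemidesmosome integrin subunit, by -0.90 ± 0.19 (adjusted p = 0.0312). Itga6, the partner of Itgb4, differed by -0.96 ± 0.26 and did not pass (adjusted p = 0.0656). The 5 omissions that left 0 to 6 genes called ended the call of Itga3, with adjusted p between 0.0604 and 0.0755. The call of Itgb4 ended in these and 2 more omissions, those of Stat3wt tumor replicate 3 and Stat3dm stroma replicate 3, with adjusted p between 0.0552 and 0.0982, and with array spread as a covariate (adjusted p = 0.0933).

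Between genotypes 12 of 14 receptors were below 0 averaged over tissues, with a median of -0.20 against -0.01 over all genes. In limma's fit 0 passed, where 0.283% of all genes did. An unadjusted p under 0.05 was found for 3, all lower, against 8.23% of all genes. Bcam, the receptor that binds the Lama5 chain, had the smallest adjusted p. It was 1.70-fold lower in Stat3dm, with a log2 difference of -0.77 ± 0.16 (limma, adjusted p = 0.0745). Its 6 Stat3dm samples lay below its 6 Stat3wt samples. It was the 1 receptor of 14 without overlap, against 0.535% of all genes. Sdc1, a heparan sulfate proteoglycan of epithelial cells, differed by -0.76 ± 0.18 (adjusted p = 0.0993). Itga3 differed by 0.15 ± 0.19 and Itgb4 by -0.24 ± 0.19.

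Among 22 other basement membrane proteins, 14 were above 0 in stroma, with a median of 0.23 against -0.03 over all genes. Of the 22, 2 passed, both higher, where 0.848% of all genes passed higher. Col4a1, a chain of the collagen network of basement membranes, differed by 0.70 ± 0.17 (limma, adjusted p = 0.0450), and Sparc, a collagen-binding matrix protein, by 0.79 ± 0.18 (adjusted p = 0.0400). Both calls ended on leaving out any 1 of 9 samples, with adjusted p up to 0.135 for Col4a1 and 0.122 for Sparc, and stood without Stat3wt stroma replicate 1, Stat3dm tumor replicate 1 or Stat3dm stroma replicate 1. Median centring ended both calls as well (adjusted p = 0.0840 and 0.0788), and keeping the dim genes ended that of Col4a1 (adjusted p = 0.0508). Between genotypes 16 of 22 were below 0 averaged over tissues, with a median of -0.20 against -0.01 over all genes. In limma's fit 0 passed, where 0.283% of all genes did. An unadjusted p under 0.05 was found for 5, all lower, against 8.23% of all genes. Nid1, nidogen, which links laminin to collagen through the γ chain, differed by -0.92 ± 0.23 (limma, adjusted p = 0.123). It was the 1 protein of 22 without overlap, against 0.535% of all genes. Col18a1, the precursor of endostatin, differed by -0.67 ± 0.22 (adjusted p = 0.309).

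Of 12 proteases that cut laminins or basement membranes, 11 were above 0 in stroma, against 47.0% of all genes. The 1 that passed was the member below 0, where 1.71% of all genes passed lower. Mmp7, a protease made by epithelial cells, was 2.92-fold lower in stroma, with a log2 difference of -1.54 ± 0.31 (limma, adjusted p = 0.0297); the call ended in 6 of 12 omissions of a sample, with adjusted p up to 0.0824, namely those of Stat3wt tumor replicates 1 and 3, Stat3wt stroma replicate 3, Stat3dm tumor replicates 2 and 3 and Stat3dm stroma replicate 2. It ended with array spread as a covariate too (adjusted p = 0.0932). Averaged over tissues Mmp7 was 2.50-fold lower in Stat3dm and did not pass (adjusted p = 0.0957). Mmp3, stromelysin, lay the other way, with 1.27 ± 0.45 averaged over tissues (limma, adjusted p = 0.352) and 1.65 ± 0.63 in stroma (adjusted p = 0.858), and did not pass. Of 9 linkers between integrins and the cytoskeleton that were tested, 0 passed in limma's fit between tissues or between genotypes averaged. Of all genes 2.55% and 0.283% did. An unadjusted p under 0.05 was found for 1 linker in each, against 22.3% and 8.23% of all genes. The closest was Fermt1, kindlin of epithelial cells, at -0.93 ± 0.25 in stroma (adjusted p = 0.0615). Of 6 tested laminin relatives, 1 passed higher in stroma, against 0.848% of all genes. It was Ntng2, a netrin-like membrane protein, higher by 0.70 ± 0.16 (limma, adjusted p = 0.0403). This call stood on leaving out Stat3wt tumor replicate 2, Stat3wt stroma replicate 2 or Stat3dm tumor replicate 1. It ended, with adjusted p up to 0.116, on leaving out any 1 of the other samples. The Ntng2 call also ended with median centring (adjusted p = 0.0567) and with array spread as a covariate (adjusted p = 0.152). Lamc3, a further γ chain outside the 9, measured 4.05 to 4.21 as group means and did not pass in any comparison.

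Across the 12 arrays pairs of chains varied together to different degrees, given as Pearson's r for description only, since samples share their group, tissue and array properties. Lama2 and Lamc1 had r = 0.89, Lamb1 and Lamc1 0.89, Lama1 and Lama2 0.88, and Lamb1 and Lamb2 0.87. Lama3 and Lamb3, partners in the hemidesmosomal laminin, had r = 0.72, and Lama5 had r = 0.79 with Lamb3 and 0.78 with Lamb2. Lama2 had r = -0.07 with both Lama3 and Lamb3, and Lama5 had r = 0.03 with Lama4. With group means removed these were 0.26, 0.15 and 0.67. Within groups Lama5 and Lama4 thus varied together, while Lama2 stayed weakly correlated with both Lama3 and Lamb3.

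**Figure D4:**
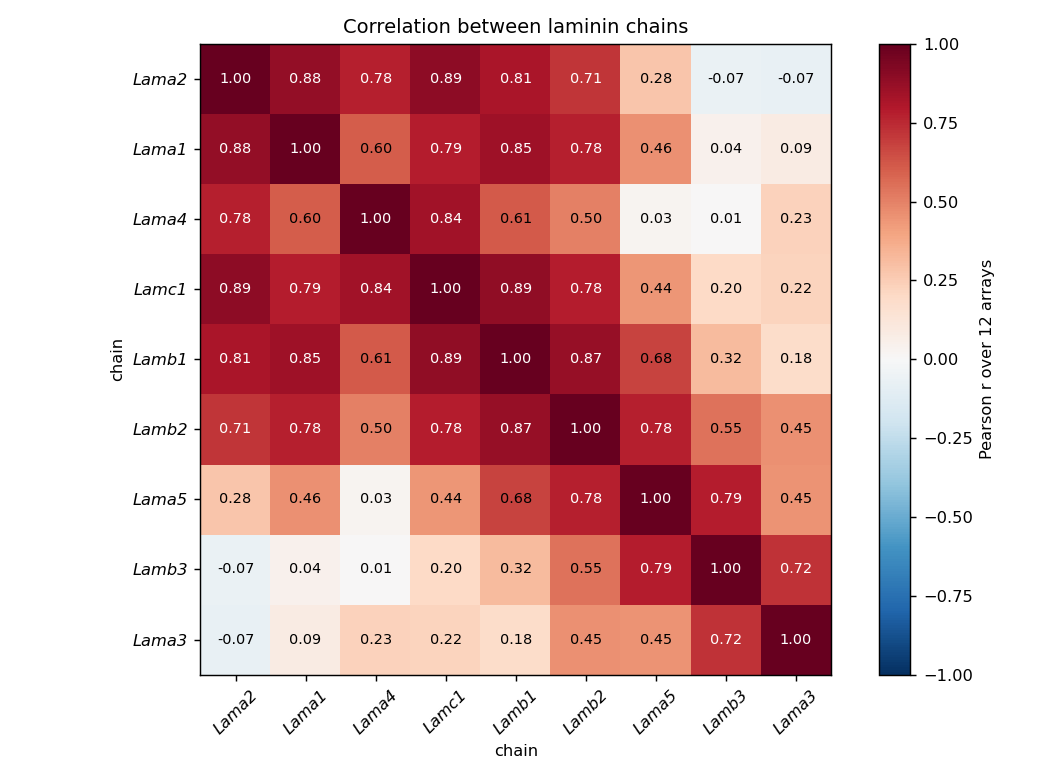
Pearson correlation of log2 signal over the 12 arrays between every pair of chains (both axes list the chains; colour and printed value give r). Lama2, Lama1, Lama4, Lamc1, Lamb1 and Lamb2 form a block with values from 0.50 to 0.89, and Lamb3 and Lama3 sit apart from Lama2 at -0.07. The block is not closed, since Lama5 reached 0.78 with Lamb2 and 0.68 with Lamb1, and Lamb3 0.55 with Lamb2.

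Lama2, set against the cell type markers, had r = 0.90 with the mean of the smooth muscle markers, 0.89 with pericytes and 0.88 with fibroblasts. Lamc1 had r = 0.85 with pericytes. Lamb3 had r = 0.70 and Lama3 0.61 with the epithelial markers, whereas Lama5 had r = 0.24 with them and -0.58 with the leukocyte markers. With group means removed the last of these was 0.50, the opposite sign, and that with the epithelial markers 0.03.

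The genes whose levels were most like those of a chain over the 12 arrays were found among all genes tested. They are the highest of many correlations on these same arrays and are given for description only. For Lama5 they were Bmp7 (r = 0.966), a secreted growth factor, Apcdd1 (0.961), an inhibitor of Wnt signalling, and Mt3 (0.953), a metallothionein. With group means removed the values for Lama5 were lower, at 0.872, 0.822 and 0.866 in that order. For Lama2 the closest was Lifr (0.974), a cytokine receptor, and for Lamc1 Flna (0.977), an actin crosslinker, and Fn1 (0.954), fibronectin. For Lama3 the closest was Dusp16 (0.968), for Lamb3 Asap2 (0.971), for Lama4 Tgfb1 (0.963), for Lama1 Pdlim3 (0.954), for Lamb1 Anxa6 (0.951) and for Lamb2 Bmp5 (0.941). The matrix protease Mmp2 was among the 3 closest genes of both Lama2 (0.967) and Lamc1 (0.940).

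The chains also moved with a property of the arrays. In each of the 4 groups the mean over the 9 chains was lowest in replicate 1 and highest in replicate 3, from 6.27 to 7.00 in Stat3wt tumor, 5.98 to 6.98 in Stat3wt stroma, 5.53 to 6.25 in Stat3dm tumor and 5.85 to 6.20 in Stat3dm stroma. The spread of an array, taken over all probe sets, ran from 1.60 to 1.91. Over the 12 arrays its correlation with a chain was highest for Lama3 (r = 0.79) and Lamb3 (0.77) and was 0.59 for Lama5. It was lowest, at 0.25, for Lama1 and Lama2, and had a median of 0.11 over all genes tested. With group means removed it was 0.62 to 0.94 for the 9 chains. The median of 0.11 is not a background for these values, and none over all genes was taken with group means removed. With the spread as a covariate the averaged genotype difference of Lama5 was -1.09, that of Lama5 in stroma passed (limma, adjusted p = 0.0382), and the differences between tissues moved as given above.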

How the data were processed

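Total RNA of 12 microdissected samples, in 4 groups of 3 from the sample titles, was measured on Affymetrix arrays. The authors deposited log2 signals of 41345 probe sets, and per the submitters' processing notes these came from RMA, run with version 1.3.1 of Affymetrix Expression Console. No annotation build is named by the labels or headers. A table of platform annotation listed 25335 probe sets, 23521 with 1 symbol, 1814 with several (unused) and 16010 unlisted. Each gene took the probe set with the highest mean, and genes with a mean log2 below 3.65 were left out. R 4.3.3 with limma 3.58.1 (lmFit, eBayes) fitted the 4 group means over all arrays, with Benjamini-Hochberg adjustment over 16635 genes within each comparison and a threshold of 0.05. The code was tested on simulated data. The chains, the gene lists and the averaged genotype comparison were chosen with earlier results of these data known. Partner genes were taken if they passed or had 1 of the 3 smallest p-values per list in 2 comparisons. Those named were picked from these and from others after their values were seen. Not all that were taken are named. Cd151, Col4a2, Smoc2, Ntn1, Ntn4 and Egflam are among those left out. Alternatives covered blocks, scaling, filter, probe set rule, weights, array spread and omission of each sample. Array weights by limma's default estimate stopped before converging, so a gene-by-gene estimate was added after the calls were seen. Same-numbered tumor and stroma samples of a genotype had correlated deviations in 5 of 6 pairs over 0.1 (r from -0.0041 to 0.51). Same-numbered samples of different genotypes, which cannot be the same mouse, reached r = 0.69, between Stat3wt tumor and Stat3dm tumor replicate 3. The check therefore cannot tell whether a number marks a mouse. The labels do not say so either, and the numbers were not taken as pairs in the main fit. Signals carry no read depth; 3 arrays a group limit the precision.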

Additional observations from a re-analysis of the deposited data

How the results depend on the processing

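Limits come first. With 3 arrays a group, calls depend on few samples, the chains' probe sets have no read depth, and array spread differs between replicates. Of 56 log2 differences of the chains, 42 kept their direction under all 21 alternatives, and the averaged Lama5 genotype difference passed under each of them; for the rest the cause was not tested. The replicate numbers were not taken as pairs. With a fixed replicate block, genes called numbered 2187 between tissues averaged over genotypes, 304 in Stat3wt, 86 in Stat3dm, 28 between genotypes in stroma, 89 in tumor and 292 averaged over tissues. Under this replicate block the chains that newly passed in limma's fit were Lamb3 and Lama5 between tissues (adjusted p = 0.0313 and 0.0347), Lama3 between tissues in Stat3wt (0.0464), Lama5 between genotypes in stroma (0.0278) and tumor (0.0177), Lamb1 in tumor (0.0456) and averaged (0.00333), and Lamb2 averaged (0.0468); no other chain's call changed. With a random replicate block (correlation 0.23) the counts were 1648, 5 and 62 between tissues, and 13 between genotypes averaged over tissues, and Lamb3 passed between tissues (adjusted p = 0.0392). Quantile normalization gave 33 genes between tissues in Stat3dm, 1 between genotypes in stroma and 90 averaged over tissues. Median centring gave 168 between tissues and 17 between genotypes averaged. Array weights, whose default estimate stopped before converging, gave 3834, 3963 and 727 between tissues (averaged, Stat3wt, Stat3dm), 164, 1579 and 945 between genotypes (stroma, tumor, averaged) and 4 for the interaction. Gene-by-gene weights gave 2642, 1020, 612, 45, 304, 431 and 3 in the same order. Of the chains, 7 passed between tissues averaged over genotypes with the default weights (4 higher in stroma, 3 lower) and 6 with the gene-by-gene weights (4 and 2). Within Stat3wt 5 and 2 passed, and within Stat3dm Lamb3 did under both weightings. Between genotypes Lama5 passed in stroma and in tumor under both, as did Lama3 in tumor (limma, adjusted p = 0.00849 and 0.0445). Averaged over tissues, Lamb1 (0.0360) and Lamb3 (0.0390) joined Lama5 under the default weights only. With array spread as a covariate the counts were 264 between tissues averaged (228 higher in stroma, 36 lower), 114 in Stat3dm, and 13, 14 and 166 between genotypes; the chains that newly passed were Lama4, Lamb1 and Lamc1 between tissues, Lama4 in Stat3dm and Lama5 between genotypes in stroma. Leaving out 1 sample gave 0 to 1297 genes between tissues averaged, 0 to 8 in Stat3wt, 0 to 22 in Stat3dm, 0 to 2 between genotypes in stroma, 0 to 7 in tumor and 16 to 71 averaged over tissues.

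The Lamb2 difference between tissues was 0.076 with quantile normalization, 0.14 with array weights, 0.094 with gene-by-gene weights, 0.28 with the spread covariate and -0.18 to 0.062 on leaving out 1 sample. In Stat3wt it was 0.054, 0.27, 0.20 and 0.32 in that order and -0.40 to 0.091 without 1 sample. In Stat3dm it was -0.0024 with median centring, -0.00022 and -0.0061 with the weights, and -0.13 to 0.23 without 1 sample. The Lama2 genotype difference in tumor was 0.31 and 0.22 with the weights, 0.17 with the spread covariate and -0.41 to 0.044 without 1 sample, and averaged over tissues it was 0.057 with the default weights. That of Lama4 in tumor was 0.057 and 0.041 with the weights, 0.31 with the spread covariate and -0.43 to 0.12 without 1 sample. The Lama5 interaction was 0.029 with median centring and -0.33 to 0.15 without 1 sample. Leaving out 1 sample also gave -0.16 to 0.69 for Lama4 and -0.21 to 0.60 for Lamc1 between tissues in Stat3wt, and -0.18 to 0.19 for Lama3 in Stat3dm. Between genotypes in stroma it gave -0.73 to 0.028 for Lama2, -0.17 to 0.67 for Lama4 and -0.64 to 0.18 for Lamc1. Averaged over tissues it gave -0.18 to 0.24 for Lama4.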
